A study of Mus musculus with 21 samples.

Results

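The 10 genes described here belong to the BCL2 family, which sets the threshold of the mitochondrial pathway of apoptosis. They were found by gene symbol in each of 21 deposited gene tables, and all 10 were present among the 55335 gene identifiers. They comprise Bcl2, Bcl2l1 and Mcl1, whose products restrain cell death, the effectors Bax and Bak1, and the BH3-only genes Bid, Bcl2l11, Bbc3 and Pmaip1. Bcl2l10 is the remaining member and is assigned no role in cell death here. The samples were oocytes and granulosa cells, the somatic cells that surround the oocyte in the follicle, from female ICR mice. The oocytes are taken here as metaphase II (MII) oocytes, which are mature eggs. The study's methods describe their release from ruptured follicles and do not name this stage. Young mice were 6 to 8 weeks old and Aged mice (old in the labels) 18 months old by the study's methods, and no genetic modification is named. The Aged + Unsorted, Aged + LRP1high and Aged + LRP1low groups were 18-month-old mice that received human umbilical cord mesenchymal stem cells under the ovarian capsule. The study followed the estrous cycle for 3 weeks after transplantation and assessed fertility at 3 weeks. Its text names no collection time for the sequenced cells. The transplanted cells were unsorted or sorted for a high or low surface level of LRP1, an endocytic receptor of the low-density lipoprotein receptor family. Oocytes gave 3 Young, 2 Aged, 2 Aged + Unsorted, 3 Aged + LRP1high and 2 Aged + LRP1low libraries. Granulosa cells gave 1 Young, 2 Aged, 1 Aged + Unsorted, 3 Aged + LRP1high and 2 Aged + LRP1low libraries. The labels call the libraries biological replicates without tying them to animals, so the p-values below measure the spread between libraries.

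In the mitochondrial pathway, the effectors BAX and BAK form pores in the outer mitochondrial membrane that release cytochrome c, and caspases then dismantle the cell. BCL2, BCL-XL (the product of Bcl2l1) and MCL1 bind the effectors or the BH3-only proteins. The BH3-only proteins BID, BIM (Bcl2l11), PUMA (Bbc3) and NOXA (Pmaip1) respond to stress and counter these binding partners. Oocytes in the ovary are lost largely by apoptosis, and granulosa cell apoptosis accompanies the atresia of follicles.

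Several libraries did not hold the RNA that their labels name. The median of 10 oocyte markers (among them Zp3, Gdf9 and Bmp15) was 84.9 to 1001 FPKM (fragments per kilobase of transcript, scaled to the mapped fragments of the library) in 8 oocyte libraries, but 0.892 in Young oocytes 1, 11.6 in Aged oocytes 1, and 5.02 and 7.77 in the 2 Aged + LRP1low oocyte libraries. These 4 are called poor in oocyte markers below (median under 20 FPKM). They spread their reads thinly over 19690 to 47920 genes at 1 FPKM or more, against 3135 to 11916 in the other 8. The 90th percentile of 1437 olfactory and vomeronasal receptor genes, which neither cell type should use, was 0.903 to 7.71 FPKM in these 4 and 0 to 2.30 FPKM in the other 8. Conversely, the Aged + Unsorted granulosa cell library had an oocyte marker median of 800 FPKM and a granulosa cell marker median of 1.27 FPKM, and across 21767 genes its log2 levels correlated at 0.968 with Aged + Unsorted oocytes 2. The granulosa cell marker median reached 20 FPKM only in Young granulosa cells 1 (74.9) and Aged + LRP1high granulosa cells 3 (21.4). The 2 Aged granulosa cell libraries had medians of 0.0482 and 0.111 FPKM. Aligned sequence ranged from 0.278 to 3.40 gigabases per library, and the single predicted gene Gm10800 took up to 86.6% of the TPM (transcript share) of a library.

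Bcl2l10 was the most abundant of the 10 transcripts in each of the 8 libraries rich in oocyte markers. The gene (identifier ENSMUSG00000032191.6) lies on chr9:75347758-75351649, plus strand, in the GRCm38 coordinates of the files, is protein coding and had 1 annotated transcript of 2 exons in GENCODE M21. Its level was 0.458, 39.5 and 740 FPKM in the 3 Young oocyte libraries, 16.1 and 1252 FPKM in the 2 Aged libraries, 1704 and 1846 FPKM in the 2 Aged + Unsorted libraries, 1141, 1383 and 310 FPKM in the 3 Aged + LRP1high libraries, and 4.43 and 7.34 FPKM in the 2 Aged + LRP1low libraries. The 4 lowest values were those of the 4 libraries poor in oocyte markers, so the groups overlapped except for Aged + Unsorted, which lay above all others, and Aged + LRP1low, which lay below Aged, Aged + Unsorted and Aged + LRP1high. In the mean the groups stood at 260 ± 416 (SD, n = 3) FPKM for Young, 634 ± 874 (n = 2) for Aged, 1775 ± 100.3 (n = 2) for Aged + Unsorted, 945 ± 562 (n = 3) for Aged + LRP1high and 5.88 ± 2.06 (n = 2) for Aged + LRP1low. In this order of means, Aged + Unsorted stood above its neighbour Aged + LRP1high by more than both SDs together, and the other neighbours did not differ beyond their spread.

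**Figure D1:**
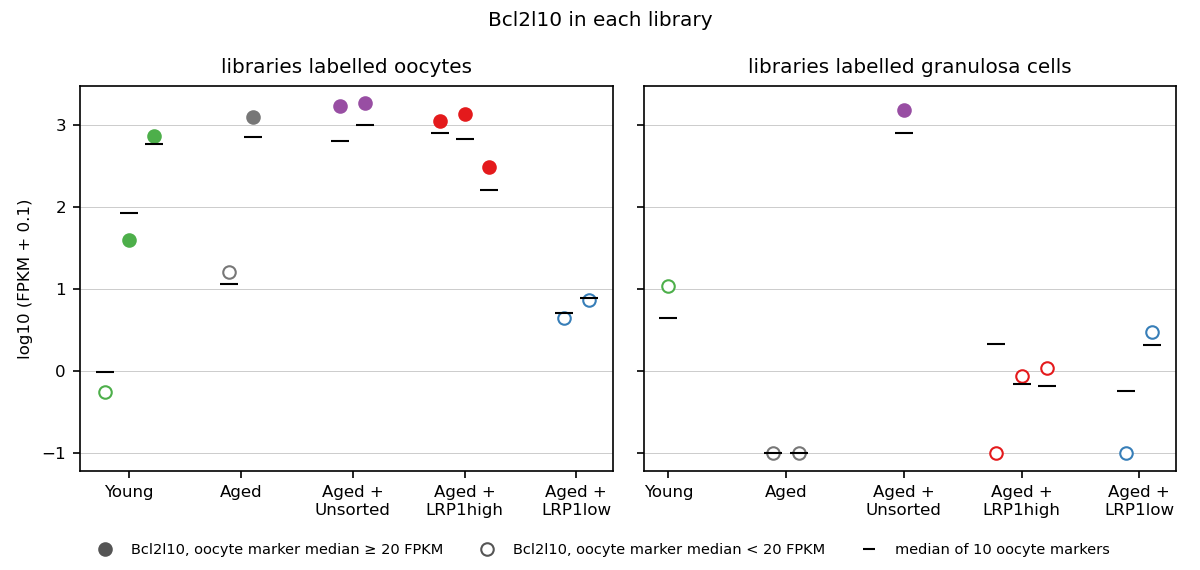
Bcl2l10 in each of the 21 libraries as log10 (FPKM + 0.1), by group, with oocyte libraries left and granulosa cell libraries right. Circles are single libraries, open where the oocyte marker median is under 20 FPKM, and black dashes give that median in the same library. Circles and dashes rise and fall together, from 0.458 FPKM for Bcl2l10 in Young oocytes 1 to 1846 FPKM in Aged + Unsorted oocytes 2, and the Aged + Unsorted granulosa cell library (1548 FPKM) sits among the oocyte libraries.

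Bcl2l10 followed the other oocyte genes from library to library. In the 8 libraries rich in oocyte markers it made up 93.9 to 98.7% of the summed FPKM of the 10 genes and was among the 14 to 673 most abundant genes of the library, whereas in the 4 poor libraries it made up 1.14 to 17.9%. The ratio of Bcl2l10 to Gdf9, which encodes a growth factor that oocytes secrete, was 0.607 and 1.18 in Young oocytes 2 and 3, 1.01 in Aged oocytes 2, 1.16 and 1.02 in the Aged + Unsorted libraries, and 0.966, 0.969 and 0.642 in the Aged + LRP1high libraries. Both genes were thus at nearly equal levels per length in 6 of these 8 libraries, and Bcl2l10 was the lower in Young oocytes 2 and Aged + LRP1high oocytes 3. In the poor libraries the ratio was 0.211 in Young oocytes 1, 1.79 in Aged oocytes 1, and 0.458 and 0.270 in the Aged + LRP1low libraries. Bcl2l10 was below the 90th percentile of the receptor genes in Young oocytes 1 and Aged + LRP1low oocytes 1. What lowered Bcl2l10 in the poor libraries was not tested. Among possible reasons, fewer oocytes and less RNA per oocyte cannot be told apart in these samples.

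**Figure D2:**
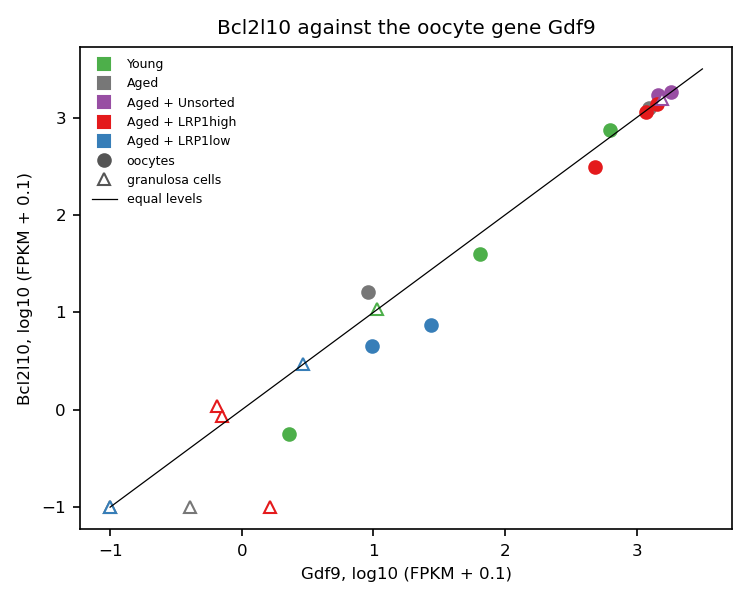
Bcl2l10 against Gdf9 in the 21 libraries, both as log10 (FPKM + 0.1); circles are oocyte and triangles granulosa cell libraries, coloured by group, and the line marks equal levels. Ratios in the 8 oocyte libraries rich in oocyte markers lie between 0.607 and 1.18, and the Aged + Unsorted granulosa cell library (0.996) lies on the line.

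The genes most like Bcl2l10 over the 12 oocyte libraries were oocyte genes. Among 4066 genes with a mean of at least 10 FPKM, the 5 highest Pearson correlations of log2 (FPKM + 1) were those of Tcl1 (0.993), Rbpms2 (0.992), E330021D16Rik (0.990), Padi6 (0.989) and Npm2 (0.988). Tcl1 encodes a coactivator of AKT kinase, Padi6 a component of the cytoplasmic lattices of the egg, and Npm2 the oocyte nucleoplasmin. Of the other members only Bcl2l1 (0.73) and Bax (0.06) correlated positively, and Bbc3 (-0.90) and Bcl2l11 (-0.84) were the most negative. These points share library, depth and the split into rich and poor libraries, and are given as a description.

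Bcl2l1 (chr2:152780668-152831728, minus strand), which encodes the survival protein BCL-XL, was the next of the 10 transcripts in 7 of the 8 libraries rich in oocyte markers. In Young oocytes it stood at 2.08, 0 and 15.7 FPKM, in Aged oocytes at 9.93 and 16.7 FPKM, in Aged + Unsorted oocytes at 55.4 and 34.9 FPKM, in Aged + LRP1high oocytes at 29.5, 62.3 and 5.85 FPKM, and in Aged + LRP1low oocytes at 8.55 and 4.22 FPKM. Both Aged + Unsorted values lay above all Young, Aged and Aged + LRP1low values, and the Aged + LRP1high values overlapped those of each other group. Against the oocyte marker median of the same library, Bcl2l1 was 0% and 2.64% in Young oocytes 2 and 3, 2.33% in Aged oocytes 2, 8.56% and 3.49% in Aged + Unsorted, and 3.69%, 9.07% and 3.63% in Aged + LRP1high oocytes. All 5 of these libraries from transplanted mice were above the 3 from Young and Aged mice by this ratio, which was computed after the values were seen and was not tested. In the 7 libraries rich in oocyte markers that held both, Bcl2l10 exceeded Bcl2l1 22.2- to 75.0-fold. This fold overlapped between libraries from transplanted and other mice. It was 47.1 in Young oocytes 3 and 75.0 in Aged oocytes 2. In Aged + Unsorted oocytes it was 30.8 and 52.9, and in Aged + LRP1high oocytes 38.7, 22.2 and 53.1. The separation by the oocyte marker median was thus not seen against Bcl2l10.

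Mcl1 and Bcl2, the other survival genes, were low in oocytes. The Young libraries held 6.14, 0 and 1.92 FPKM of Mcl1, the Aged libraries 2.48 and 0, the Aged + Unsorted libraries 0 and 1.32, the Aged + LRP1high libraries 2.40, 2.24 and 0, and the Aged + LRP1low libraries 4.12 and 3.50 FPKM. It was listed at 0 in 4 of the 8 libraries rich in oocyte markers and above 0 in all 4 poor ones. Among these 4 it exceeded the 90th percentile of the receptor genes of its library in 1, Young oocytes 1. Both Aged + LRP1low values lay above the Aged, Aged + Unsorted and Aged + LRP1high values and within the range of Young, but below that percentile. The other groups overlapped. Bcl2 reached 0.988 FPKM at most in the 8 rich libraries. It was 1.83 to 6.08 FPKM in the 4 poor ones, above that percentile in 2.

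The effectors differed from each other in level. For Bax, the Young libraries stood at 1.92, 0 and 4.89 FPKM, the Aged libraries at 15.0 and 0, the Aged + Unsorted libraries at 7.43 and 10.1, the Aged + LRP1high libraries at 3.38, 24.4 and 0, and the Aged + LRP1low libraries at 7.15 and 5.42 FPKM. No group was set apart by Bax, whose span (chr7:45461697-45466898, minus strand) shares 915 bases with that of Gm45808 on the same strand. Bak1 was listed at 0 in 7 of the 8 libraries rich in oocyte markers, with 0.130 FPKM in Young oocytes 3, and reached its highest levels in Aged + LRP1low oocytes (3.28 and 1.88 FPKM). Bak1 exceeded the 90th percentile of the receptor genes of its library in Young oocytes 3, where that percentile was 0, and in none of the other 11 oocyte libraries. The span of Bak1 overlaps that of Ggnbp1, and the span of Bid that of Bcl2l13, on opposite strands, so both levels are uncertain, since whether reads were counted by strand is not given in the sources used here.

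The 4 BH3-only genes together summed to 0 to 2.73 FPKM in the 8 libraries rich in oocyte markers and to 23.2 to 44.6 FPKM in the 4 poor ones. Bbc3 (PUMA) was listed at 0 in all 8 rich libraries and stood at 12.8, 9.92, 8.20 and 12.1 FPKM in Young oocytes 1, Aged oocytes 1 and Aged + LRP1low oocytes 1 and 2. Bid, which links death receptors to mitochondria, was at most 0.834 FPKM in the rich libraries and 1.90, 26.8, 14.4 and 8.97 FPKM in the same 4 poor ones. Bcl2l11 (BIM) was 0 to 2.51 FPKM in the rich and 3.64 to 11.1 FPKM in the poor libraries. Pmaip1 (NOXA) was listed at 0 in 7 of the 8 rich libraries and in Aged oocytes 1, and stood at 0.463 FPKM in Young oocytes 1 and 3.62 and 7.78 FPKM in Aged + LRP1low oocytes. The 90th percentile of the receptor genes was 0.903 FPKM in Young oocytes 1, 7.71 in Aged oocytes 1, and 4.76 and 4.96 FPKM in the Aged + LRP1low libraries, against 2.30 FPKM in Aged oocytes 2, where the BH3-only genes summed to 0, and its part in these levels was not tested. Bid and Bbc3 exceeded this percentile in all 4 poor libraries, Bcl2l11 in 3, and Pmaip1 in 1.

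**Figure D3:**
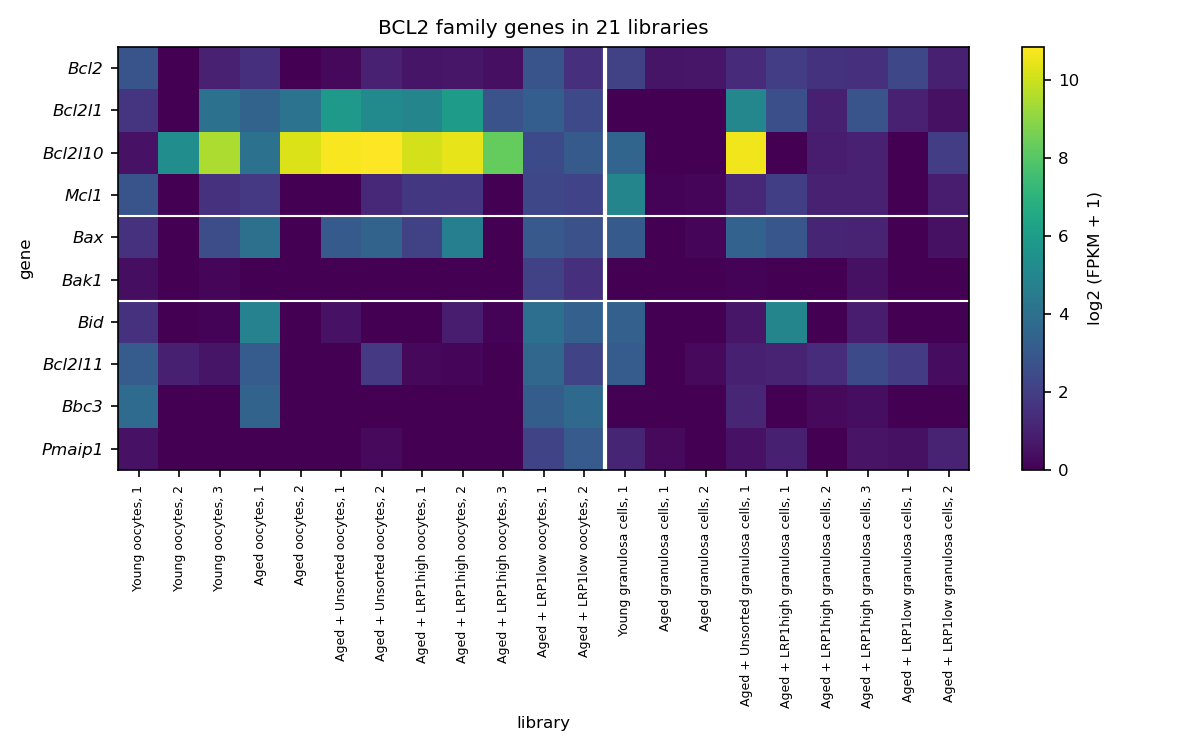
Heat map of the 10 genes (rows: Bcl2l10 with the survival genes, effectors and BH3-only genes, divided by white lines) in the 21 libraries (columns, oocytes left of the white line), coloured by log2 (FPKM + 1). The Bcl2l10 row is bright in 8 oocyte libraries and in the Aged + Unsorted granulosa cell library, and among oocytes the BH3-only rows are lit mainly in Young oocytes 1, Aged oocytes 1 and the 2 Aged + LRP1low oocyte libraries, where they sum to 23.2 to 44.6 FPKM.

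Granulosa cell libraries held little of these 10 transcripts. Bcl2l10 was listed at 0 in both Aged libraries, at 0, 0.767 and 0.992 FPKM in the Aged + LRP1high libraries and at 0 and 2.88 FPKM in the Aged + LRP1low libraries. It stood at 10.8 FPKM in the Young library and, apart from all others, at 1548 FPKM in the Aged + Unsorted library. Its ratio to Gdf9 was 1.03 in the Young and 0.996 in the Aged + Unsorted library. Mcl1, a short-lived survival protein in many somatic cells, was the highest of the 10 in Young granulosa cells with 29.5 FPKM and was 0.0912 and 0.141 FPKM in Aged, 1.39 in Aged + Unsorted, 3.02, 1.00 and 1.00 in Aged + LRP1high, and 0 and 0.817 FPKM in Aged + LRP1low granulosa cells. With 1 Young library, this difference had no replicate check. Bcl2 was found in all 9 libraries, from 0.534 to 4.17 FPKM. Bid stood at 29.5 FPKM in Aged + LRP1high granulosa cells 1 and 9.02 FPKM in the Young library, and at 0.763 FPKM or less in the other 7. The 10 genes summed to 0.846 and 1.05 FPKM in the 2 Aged libraries, where 7 and 6 of them were listed at 0.

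Promoters of the members that ranked after Bcl2l10 are shown here because Bcl2l1 and Bax had the next highest means of the 10 genes in oocytes and Mcl1 was the highest of the 10 in Young granulosa cells. The windows come from RefSeq on GRCm38.p6 and run from 250 bases before to 50 bases after a transcription start, written 5′ to 3′ on the gene's strand. Capitals mark matches of the E-box CANNTG or of TAATTN on either strand, N being any base. TAATTN is a looser form of the element bound by the oocyte factor NOBOX, so a match need not be that element. The table held 13 windows for 8 members, and Bcl2l10 and Pmaip1 had no entry.
Bcl2l1, chr2:152831679-152831978, minus strand: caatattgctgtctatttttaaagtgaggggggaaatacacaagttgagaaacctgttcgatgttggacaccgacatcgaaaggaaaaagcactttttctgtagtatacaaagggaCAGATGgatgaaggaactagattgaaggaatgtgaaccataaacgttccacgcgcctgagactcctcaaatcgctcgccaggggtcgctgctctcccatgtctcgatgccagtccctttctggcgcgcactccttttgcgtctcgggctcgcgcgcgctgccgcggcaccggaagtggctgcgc
Bcl2l1, chr2:152830668-152830967, minus strand: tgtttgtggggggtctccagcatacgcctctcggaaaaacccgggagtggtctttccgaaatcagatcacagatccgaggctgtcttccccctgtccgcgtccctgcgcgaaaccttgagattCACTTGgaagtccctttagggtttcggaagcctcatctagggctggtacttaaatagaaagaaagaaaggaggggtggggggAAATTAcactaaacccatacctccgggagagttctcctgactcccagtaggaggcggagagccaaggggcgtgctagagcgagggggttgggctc
Mcl1, chr3:95658471-95658770, plus strand: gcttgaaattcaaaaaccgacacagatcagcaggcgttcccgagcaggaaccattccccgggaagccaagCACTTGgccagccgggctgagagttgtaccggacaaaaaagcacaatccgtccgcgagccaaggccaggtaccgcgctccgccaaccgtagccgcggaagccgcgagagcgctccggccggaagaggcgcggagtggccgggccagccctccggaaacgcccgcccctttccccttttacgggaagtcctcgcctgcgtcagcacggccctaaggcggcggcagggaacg
Bax, chr7:45466849-45467148, minus strand: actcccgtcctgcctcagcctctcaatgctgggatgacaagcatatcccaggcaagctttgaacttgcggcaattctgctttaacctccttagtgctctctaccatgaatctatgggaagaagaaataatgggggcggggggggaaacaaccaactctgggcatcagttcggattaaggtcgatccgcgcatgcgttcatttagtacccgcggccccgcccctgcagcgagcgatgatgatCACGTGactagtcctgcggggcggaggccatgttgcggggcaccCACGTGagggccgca
An E-box match was present in 8 of the 13 windows (5 of 8 members), against 72.3% of all 32851 windows in the table. A TAATTN match was present in 2 of the 13 windows, both of Bcl2l1, against 27.0% of all windows, and TATAAA in 0 of 13, against 13.6%. Which start site was used was not measured, and a match of letters is no evidence of binding.

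Comparisons between groups were made on log2 (FPKM + 1) with limma, and a gene was called where the fold change exceeded 1.5 and the Benjamini-Hochberg adjusted p over all genes tested was below 0.05. Genes with a mean of 1 FPKM or more entered, so that 9 of the 10 members were tested in oocytes (not Bak1), 7 in granulosa cells (not Bak1, Bbc3 and Pmaip1) and 8 in both together (not Bak1 and Pmaip1).

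Ageing alone left no member called. For Aged against Young oocytes 0 of 9 were called, beside 0.0964% of all 28004 genes, and 0 by unadjusted p, beside 8.65%. The Bcl2l10 difference was 2.06 ± 2.24 (SE) on the log2 scale (limma, adjusted p = 0.65), beside a median of 0.94 over all genes tested. It was 2.85 without the libraries poor in oocyte markers, with 0 members called, and turned to -0.24 without Young oocytes 1 and to -1.04 without Aged oocytes 2. Without Aged oocytes 2, which leaves the library poor in oocyte markers as the only Aged one, Bid was called higher (4.25, adjusted p = 0.0028).

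Transplantation was compared with Aged oocytes in each of its 3 forms. For Aged + Unsorted and Aged + LRP1high, 0 of 9 members were called, beside 0% and 0.771% of all genes, and 0 also by unadjusted p, beside 8.74% and 10.9%. Bcl2l10 differed by 3.60 ± 2.46 for Aged + Unsorted (limma, adjusted p = 0.44) and by 2.43 ± 2.24 for Aged + LRP1high (adjusted p = 0.52), beside medians of -0.86 and -1.05 over all genes. Leaving out the libraries poor in oocyte markers reduced these differences to 0.50 and turned the latter to -0.67, again with 0 members called. Without Aged oocytes 2, Bid was called lower in both comparisons (-4.54 and -4.46). All comparisons with Aged share the same 2 control libraries.

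Aged + LRP1low oocytes differed from Aged oocytes in 1 of 9 members, beside 3.17% of all genes, and in the same 1 by unadjusted p, beside 14.1%. Pmaip1 was called higher, by 2.67 ± 0.64 on the log2 (FPKM + 1) scale (limma, adjusted p = 0.0488). It was listed at 0 in both Aged libraries, so this difference depends on the pseudocount and is no fold change. It passed the filter on low values only through the Aged + LRP1low libraries, so its call is given as a description of these, and its level there was above the 90th percentile of the receptor genes in 1 of the 2. The call was lost with a pseudocount of 0.1, with quantile normalization and with the replicate block, and without either Aged + LRP1low library Pmaip1 was no longer tested. Bcl2l10 differed by -4.44 ± 2.46 (adjusted p = 0.47).

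Aged + LRP1high and Aged + LRP1low oocytes differed most. Here 1 member was called higher and 1 lower (2 of 9), beside 26% of all genes (1.21% higher and 24.8% lower) and a median difference of -1.89 over all genes, and 5 passed by unadjusted p, beside 49.1%. Bcl2l10 was higher in Aged + LRP1high oocytes by 6.87 ± 2.24 (limma, adjusted p = 0.0463), with all 3 libraries above both Aged + LRP1low libraries. Pmaip1 was lower by 2.67 ± 0.58 (limma, log2 difference -2.67, adjusted p = 0.0205), again as a gene listed at 0, here in all 3 Aged + LRP1high libraries. Here too Pmaip1 passed the filter on low values only through the Aged + LRP1low libraries, so its call is given as a description of these. Bid, Bcl2l11 and Bbc3 differed by -3.30 ± 1.15, -2.78 ± 1.07 and -3.46 ± 1.21 and missed the threshold (limma, adjusted p = 0.0540, 0.0681 and 0.0546), beside the median shift of -1.89. Their means in the 8 libraries rich in oocyte markers were 0.181, 0.535 and 0 FPKM. By FPKM they thus passed the filter on low values only through the 4 poor libraries. Bbc3 was listed at 0 in all 3 Aged + LRP1high libraries, so its difference depends on the pseudocount. Neither call held without any 1 of the 5 libraries (Pmaip1 was then not tested where an Aged + LRP1low library was the one left out), with a pseudocount of 0.1, with quantile normalization or with the replicate block, and that of Bcl2l10 was also lost when genes of low values were kept. By TPM, and by TPM without Gm10800, Bid, Bcl2l11 and Bbc3 were called as well, which is likewise given as a description of the Aged + LRP1low libraries. Since both Aged + LRP1low libraries were poor in oocyte markers, the treatment and the content of oocyte RNA cannot be told apart here.

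Aged + LRP1high oocytes were also set against Young and Aged + Unsorted oocytes. Neither comparison called a member (0 of 9 in each, beside 0% and 0% of all genes), and at an unadjusted p below 0.05 Bcl2l1 and Bcl2l10 passed against Young, beside 3.17% of all genes, and 0 against Aged + Unsorted, beside 2.79%. Against Young, Bcl2l1 differed by 2.67 ± 1.05 and Bcl2l10 by 4.49 ± 2.01 (limma, adjusted p = 1 for both). Without the libraries poor in oocyte markers the Bcl2l10 difference from Young fell to 2.19, and 0 members were called. Against Aged + Unsorted, Bcl2l10 differed by -1.17 ± 2.24 (adjusted p = 1).

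**Figure D4:**
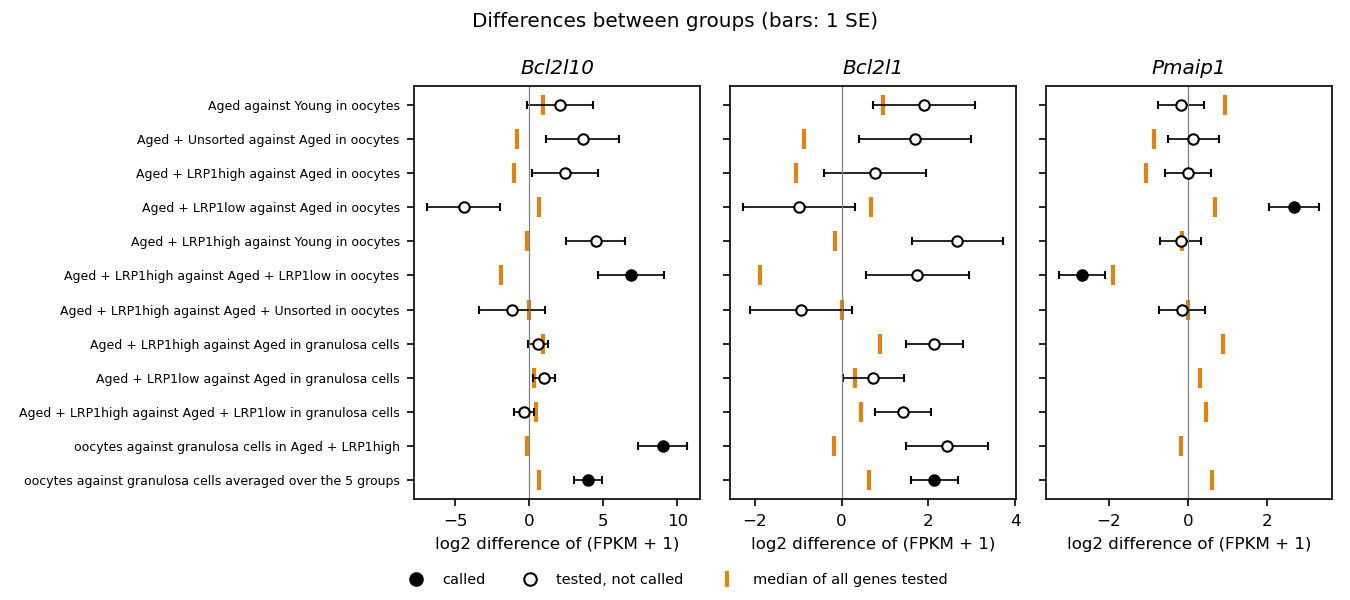
Differences of Bcl2l10, Bcl2l1 and Pmaip1 in the 12 comparisons, as log2 difference of (FPKM + 1) with bars of 1 SE; filled circles were called, open ones were not, and orange ticks give the median over all genes tested in that comparison. The filled circles are those of Bcl2l10 and Pmaip1 for Aged + LRP1high against Aged + LRP1low oocytes (6.87 and -2.67), of Pmaip1 for Aged + LRP1low against Aged oocytes (2.67), and of Bcl2l10 and Bcl2l1 for oocytes against granulosa cells. Pmaip1 passed the filter on low values only through the Aged + LRP1low oocyte libraries.

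No member was called in granulosa cells. For Aged + LRP1high against Aged, Aged + LRP1low against Aged, and Aged + LRP1high against Aged + LRP1low, 0 of 7 were called in each, beside 0% of 13002 genes in each. At an unadjusted p below 0.05, Bcl2l1 (2.14 ± 0.65) and Bax (1.62 ± 0.65) passed for Aged + LRP1high against Aged, beside 8.51% of all genes (limma, adjusted p = 0.46 for both), and 0 members passed in the other two, beside 3.79% and 5.15%. Bcl2l1 was 5.18, 0.937 and 6.13 FPKM in Aged + LRP1high and listed at 0 in both Aged libraries. These Aged libraries held hardly any granulosa cell marker RNA, and the comparisons with Aged could not be repeated without them. Aged + LRP1low had no granulosa cell library with a marker median of 20 FPKM either. Differences of the transplant effects between oocytes and granulosa cells, tested as interactions, were called for 0 of 8 members in each of the 3 contrasts, beside 0% of 21767 genes for Aged + LRP1high against Aged and for Aged + LRP1low against Aged, and 2.66% for Aged + LRP1high against Aged + LRP1low. By unadjusted p, 1, 0 and 4 members passed in these contrasts, beside 16%, 6.41% and 37.7% of all genes. The lowest adjusted p (limma) were those of Bid (-5.21 ± 1.82, adjusted p = 0.069) and Bcl2l10 (7.25 ± 2.64, adjusted p = 0.074) for Aged + LRP1high against Aged + LRP1low, beside a median of -2.02 over all genes.

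Libraries labelled oocytes were set against those labelled granulosa cells. Of the latter, only Young granulosa cells 1 and Aged + LRP1high granulosa cells 3 had a granulosa cell marker median of 20 FPKM or more. Within Aged + LRP1high, 1 of 8 members was called, beside 5.24% of 21767 genes, and 2 by unadjusted p, beside 16.1%. Bcl2l10 was higher in oocytes by 9.02 ± 1.67 (limma, adjusted p = 0.00708), and all 3 oocyte libraries were above all 3 granulosa cell libraries, of which 1 was listed at 0. This call held without each of the 6 libraries in turn, and was lost when genes of low values were kept (adjusted p = 0.054) and when Aged + LRP1high granulosa cells 3 was the only granulosa cell library of the group (8.63, adjusted p = 0.12). Averaged over the 5 groups, 2 of 8 were called, beside 3% of all genes and a median of 0.62, and the same 2 by unadjusted p, beside 21.4%. Bcl2l10 was higher in oocytes by 3.95 ± 0.96 (adjusted p = 0.0380) and Bcl2l1 by 2.13 ± 0.54 (adjusted p = 0.0445). Without the Aged + Unsorted granulosa cell library, and thus over 4 groups, these were 4.89 and 2.55 (adjusted p = 0.0096 and 0.014). Both averaged calls were lost without Aged + Unsorted oocytes 1 or 2, Aged + LRP1high oocytes 1 or 2, either Aged + LRP1low oocyte library, either Aged granulosa cell library, any Aged + LRP1high granulosa cell library, or Aged + LRP1low granulosa cells 1, and that of Bcl2l1 without Aged + LRP1low granulosa cells 2. Both were also lost when genes of low values were kept, with quantile normalization, with a trended robust variance, with the replicate block (adjusted p = 0.071 and 0.095) and with only the libraries that hold the markers of their label. Over all libraries left out in turn the adjusted p of Bcl2l10 ran from 0.0035 to 0.087.

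Other genes of the pathway were counted over 48 symbols in 6 lists. The inhibitors of apoptosis and Foxo3 were the most abundant of them in oocytes. Birc5, which encodes survivin, had a median of 296 FPKM over the 12 oocyte libraries, Birc6 60.5 FPKM and Birc3 64.8 FPKM, and 0 of 7 genes of that list were called in any comparison. Among upstream regulators, Foxo3, the transcription factor that holds primordial follicles dormant, was 159 to 1233 FPKM in the 8 libraries rich in oocyte markers. Foxo3 was called higher in Aged + LRP1high than in Aged + LRP1low oocytes (6.99 ± 1.79, limma, adjusted p = 0.0286) and, with the stress kinase gene Mapk8, higher in oocytes than in granulosa cells of Aged + LRP1high mice (7.16 and 4.37) and averaged over the groups (3.47 and 1.96). Called lower in Aged + LRP1high than in Aged + LRP1low oocytes were 3 of 12 further BCL2 family genes tested (Bcl2l2 by -2.42, Bcl2l14 by -3.05 and Hrk by -2.94), 2 of 6 death receptor and adaptor genes (Fas by -2.98 and Tnfrsf1a by -3.40) and the p53 relative Trp73 (by -3.06), beside 24.8% of all genes called in this direction. Bnip3l, a mitophagy receptor, was called higher in oocytes than in granulosa cells of Aged + LRP1high mice (4.20 ± 1.19, limma, adjusted p = 0.0488). The alternatives of the closing section were run for the members only, so whether these pathway calls hold under them was not tested. For the calls against Aged + LRP1low oocytes, both Aged + LRP1low libraries were poor in oocyte markers, as for the members. Fas and Tnfrsf1a had means under 1 FPKM in the 8 rich libraries. They passed the filter on low values only through the poor ones, so their calls are given as a description of these. Of the further BCL2 family genes, 12 had a mean of 1 FPKM or more over all oocyte libraries and 8 over the rich ones. For upstream regulators these numbers were 7 and 6. The calls of Bcl2l2, Bcl2l14, Hrk and Trp73 may share this limit. Of 8 apoptosome and caspase genes and 5 mitochondrial channel and nuclease genes, 0 were called in any comparison. Cycs, which encodes cytochrome c, and Vdac3, a channel of the outer mitochondrial membrane, led these lists in oocytes with medians of 27.5 and 33.7 FPKM.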

How the data were processed

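The authors built libraries from oocyte and granulosa cell RNA (Smart-seq2 by the study's methods, a stranded kit per the labels), aligned reads with HISAT2 2.2.1 and estimated abundance with StringTie 1.3.3b, per the processing notes. The deposited tables give coverage (a signal), FPKM and TPM per gene, and repeated identifiers were summed. The notes name mm9, but 54577 of 55335 identifiers had the GRCm38 coordinates of GENCODE M21. Depth was read from coverage over FPKM of single-exon genes, and the number of reads per gene is unknown. Genes with a mean of at least 1 FPKM were fitted with limma 3.58.1 (R 4.3.3) on log2 (FPKM + 1), all groups of a cell type in 1 model and all 21 libraries for oocytes against granulosa cells. Named genes were the 10 members, pathway genes called or among the 3 highest of their list, and the 5 genes most like Bcl2l10. The members, lists, motifs and the receptor gene background were chosen with earlier results of these data known. Data with independent noise for each gene were simulated for Aged + LRP1high against Aged oocytes. The model recovered 73 of 100 changes of 6 on the log2 scale and 18 of 100 changes of 3, and called 7 unchanged genes. A shift shared by many genes, as between libraries rich and poor in oocyte markers, was not simulated, so the check does not cover it. The alternatives are named in the closing section.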

Additional observations from a re-analysis of the deposited data

Results flagged for a closer look

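The 4 values below were found in the 2 granulosa cell libraries that stand alone in their group and enter no comparison within granulosa cells. Each was above 10 FPKM and above all 7 granulosa cell libraries of the 3 groups that were compared. In the Aged + Unsorted granulosa cell library, Bcl2l10 was 1548 FPKM, against 2.88 FPKM at most in those 7, and Bcl2l1 was 31.8 FPKM, against 6.13 FPKM at most. The oocyte marker median of that library was 800 FPKM, and the part of this in the values was not tested. In the Young granulosa cell library, Mcl1 was 29.5 FPKM, against 3.02 FPKM at most, and Bcl2l10 was 10.8 FPKM, with an oocyte marker median of 4.36 FPKM and a granulosa cell marker median of 74.9 FPKM. Groups held 1 to 3 libraries, too few to test single libraries as outliers.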

How the results depend on the processing

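The alternatives were a pseudocount of 0.1, no filter on low values, TPM, quantile normalization, a trended robust variance, unadjusted p, a replicate block, leaving out each library or the 4 oocyte libraries poor in oocyte markers, and, chosen after seeing the data, TPM without Gm10800 and only libraries that hold the markers of their label. The numbers of members called for Aged + LRP1high against Aged + Unsorted oocytes, and for Aged + LRP1low against Aged and Aged + LRP1high against Aged + LRP1low granulosa cells, stayed at 0 under every alternative run. Aged + LRP1high against Aged + LRP1low oocytes, with 2 called, gave 5 with TPM, 6 with TPM without Gm10800, 4 with the trended robust variance, 5 by unadjusted p, and 0 with pseudocount 0.1, quantile normalization, replicate block and each left-out library (0 to 0). Aged + LRP1low against Aged oocytes, with 1, gave 2 with no filter and with TPM without Gm10800, 0 with pseudocount 0.1, quantile normalization and replicate block, and 0 to 2 without single libraries. Averaged oocytes against granulosa cells, with 2, gave 0 with no filter, quantile normalization, trended robust variance, replicate block and marker-holding libraries, and 0 to 3 without single libraries. Oocytes against granulosa cells in Aged + LRP1high, with 1, gave 2 by unadjusted p, 0 with no filter and with marker-holding libraries, and 1 to 2 without single libraries. Unadjusted p gave 2 members for Aged + LRP1high against Young oocytes and against Aged granulosa cells, both 0 to 0 without single libraries. Single left-out libraries gave 0 to 1 for Aged against Young, Aged + Unsorted against Aged and Aged + LRP1high against Aged oocytes, the 1 being Bid without Aged oocytes 2. Bcl2l10 ran from -1.04 to 5.15 without single libraries for Aged against Young oocytes, below 0 without Young oocytes 1 (-0.24) and Aged oocytes 2 (-1.04), and from -0.67 to 5.53 for Aged + LRP1high against Aged oocytes, with -0.67 without Aged oocytes 1 or all 4 poor libraries. The cause was not tested. Deviations of libraries of the same replicate number had no common direction, with correlations from -0.44 (Young with Aged + LRP1high oocytes 3) to 0.44 (Young with Aged oocytes 1). Young oocytes 1 and Aged oocytes 1 were both poor in oocyte markers. The replicate block changed no call other than those given. Comparisons of Aged + LRP1low oocytes, and the average over groups, could not be fitted without the 4 poor libraries. Single-read precision cannot be given, since reads per gene are unknown.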
